A study of Mus musculus with 22 samples.

Results

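Chromatin accessibility of T-bet+ cDC2s was compared with that of cDC1s over all 177956 windows of the ATAC-seq count table, each a stretch of 150 bases centred on the summit of a peak. All deposited windows were taken, and 166547 of them had enough reads to be tested. The study had called their peaks on reads of these same libraries and kept those reproducible between replicates of a subset. The comparison rests on 4 of the 6 ATAC-seq libraries and of the 22 samples of the series, 2 of T-bet+ cDC2s and 2 of cDC1s, with 2 of T-bet- cDC2s fitted alongside. Cells came from spleens of mice aged 6 to 10 weeks that were homozygous for Tbx21RFP-cre, a knock-in allele at the Tbx21 locus that reports T-bet with a red fluorescent protein (RFP), so every library carries that allele. Cells negative for lineage markers, CD64 and Ly6C and positive for CD11c and MHCII were sorted as T-bet+ cDC2s (CD11b+ XCR1- RFP+), T-bet- cDC2s (CD11b+ XCR1- RFP-) or cDC1s (CD11b- XCR1+), 50000 cells per ATAC-seq library. The gates are given here by the labels, since the study's methods print the RFP signs of both cDC2 subsets the other way round, and the level of Tbx21 RNA goes with the labels. RNA-seq of the same 3 subsets from spleen, with 3 libraries each, was the second readout.

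ATAC-seq uses a transposase that cuts and tags DNA where nucleosomes leave it exposed, so the reads over a window measure how open that stretch is. Conventional dendritic cells (cDCs) take up antigen and present it to T cells. The cDC1 lineage depends on the transcription factors Irf8 and Batf3 and is known for presenting captured antigen to CD8 T cells, whereas cDC2s depend on Irf4, Zeb2 and, in spleen, on signals through Notch2. T-bet, encoded by Tbx21, is a T-box factor best known from type 1 lymphocytes. PU.1 and other ETS factors, Irf factors, Runx factors, AP-1 and NF-kB all bind DNA in dendritic cells, and PU.1 can recruit Irf4 or Irf8 to paired ETS-IRF sites.

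Chromatin differed widely between both subsets. Of the windows tested, 18359 (11.0%) were more open in T-bet+ cDC2s and 19957 (12.0%) were more accessible in cDC1s, by edgeR's quasi-likelihood test (adjusted p below 0.01, log2 fold change past 0.5 either way). They lay in 13595 and 15141 peaks, closest to 7464 and 8100 genes. The windows open in cDC1s differed by more, their median log2 fold change being 2.15 in size (quartiles 1.62 and 2.88) against 1.44 (0.99 and 1.98) for those open in T-bet+ cDC2s. Their mean counts were also lower (median 29.1 against 66.8), and small changes are called less readily at low counts. The part of this in the sizes was not tested. Changes over 3 on the log2 scale were held by 4396 windows open in cDC1s (22%) and by 856 open in T-bet+ cDC2s (4.66%). The level at which each kind of window stood differed as well. At windows open in T-bet+ cDC2s the median normalized count was 103 and 94.8 in T-bet+ cDC2s and still 32.4 and 32.2 in cDC1s. At windows open in cDC1s it was 45.0 and 50.6 in cDC1s and 8.62 and 9.20 in T-bet+ cDC2s. Thus the first set was partly open in both subsets, and the second was near the low end of the counts in T-bet+ cDC2s. No read fell in either T-bet+ library at 40 windows open in cDC1s, and at 1 window open in T-bet+ cDC2s no read fell in either cDC1 library.

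**Figure D1:**
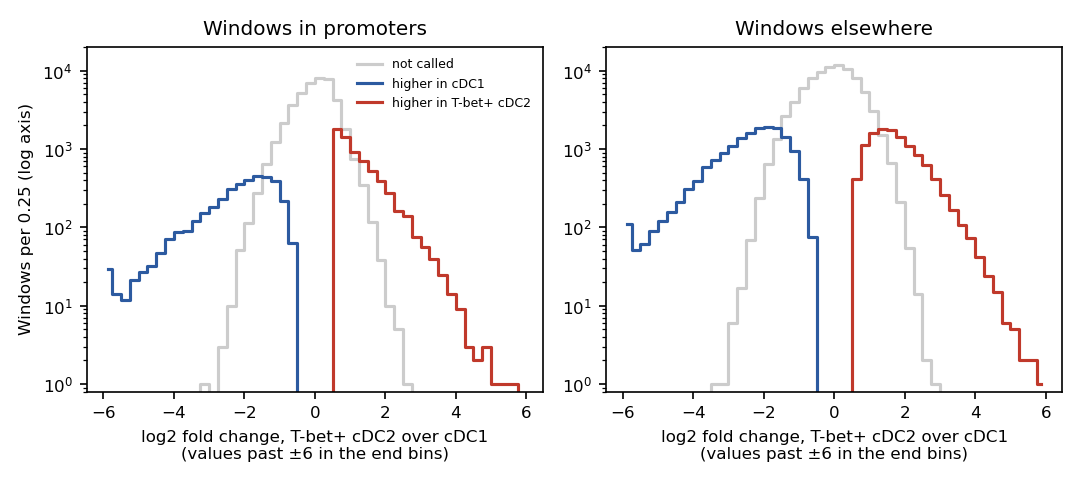
Number of windows (log axis) against the log2 fold change of T-bet+ cDC2s over cDC1s in bins of 0.25, for windows in promoters (left) and elsewhere (right), with called windows in red (more open in T-bet+ cDC2s) or blue (more accessible in cDC1s) and the others in grey. Values past 6 in size are collected in the end bins, and the blue tail reaches farther than the red one in both panels.

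The spread between libraries was small beside the difference between subsets. Libraries held 7270164 to 10081555 reads in windows, and log counts correlated across windows at 0.932 and 0.916 within the T-bet+ and cDC1 pairs and at 0.691 to 0.722 between them. The groups did not overlap at 38310 of the 38316 called windows, while this was so at 63.8% of all windows tested. Counts over whole peaks, which hold the same reads and are no independent check, gave 11977 peaks higher in T-bet+ cDC2s (16.3%) and 14694 higher in cDC1s (20%) of 73293. Scaling by library total alone shifted the median of all windows to a log2 value of -0.18 and gave 13058 and 23624 windows, so that the share open in T-bet+ cDC2s fell from 47.9% to 35.6% of the calls. On chromosome 11, which carries Tbx21, the T-bet+ libraries stood apart from each other, with 556179 and 477251 normalized counts in all, and windows more open in T-bet+ cDC2s made up 7.34% there against 9.77% to 12.7% on the other autosomes. The part of that difference in the results was not tested.

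RNA of the sorted markers followed the labels, whereas in chromatin Tbx21 alone did. RFP, XCR1 and CD11b were used for sorting, so these genes check the libraries and are no findings. Of 12 windows of Tbx21 1 was called, the one at its start site (chr11:97115260-97115409, mm10). It held 69.0 and 66.3 normalized counts in T-bet+ cDC2s, 22.0 and 20.7 in cDC1s, and 18.5 and 29.4 in T-bet- cDC2s. Over cDC1s this was 1.66 ± 0.35 on the log2 scale (SE, n = 2 libraries per subset, edgeR adjusted p = 8.45e-05). Tbx21 RNA was 407 to 587 normalized counts in T-bet+ cDC2s and 3.43 to 29.1 in cDC1s. Sirpa, which encodes the cDC2 surface receptor SIRPα and was not used in the gate, had 7 of 13 windows more open in T-bet+ cDC2s and none less. Its window of largest change (chr2:129592023-129592172, in the promoter) held 112 and 82.8 counts in T-bet+ cDC2s, 4.18 and 8.05 in cDC1s, and 140 and 138 in T-bet- cDC2s. Both cDC2 subsets were open there and cDC1s were nearly closed (log2 fold change 3.98 ± 0.38, edgeR adjusted p = 8.73e-14). No window was assigned to Itgam, which encodes CD11b, and with assignment to protein-coding genes alone 11 windows were, of which 1 was more accessible in cDC1s and 0 in T-bet+ cDC2s, against the sort. Itgam RNA was 801 to 1295 in T-bet+ cDC2s and 13.6 to 36.6 in cDC1s.

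At Xcr1, the chemokine receptor that marks cDC1s, RNA and chromatin differed in how far they separated the subsets. Xcr1 RNA was 18966, 20855 and 27505 in cDC1s against 105 to 166 in T-bet+ cDC2s (log2 fold change -7.28 ± 0.35, edgeR adjusted p = 2.54e-06), yet 1 of its 9 windows was more accessible in cDC1s and 1 in T-bet+ cDC2s. With assignment to protein-coding genes alone, 1 of 15 windows was more accessible in cDC1s and 4 in T-bet+ cDC2s. The window open in cDC1s (chr9:123863318-123863467, in the promoter) held 24.9 and 21.2 counts in T-bet+ cDC2s, 92.0 and 140 in cDC1s, and 55.4 and 58.8 in T-bet- cDC2s. The reverse call at Xcr1, a log2 fold change of 0.62 at chr9:123852038-123852187, lies 139 bases from the start of the neighbouring gene Fyco1, which encodes a vesicle adaptor. A window in an exon of Fyco1 (chr9:123838575-123838724), 13.6 kb from the nearest end of Xcr1, was among the most selective of the whole table. It had 0 reads in both T-bet+ libraries, 94.1 and 108 normalized counts in cDC1s, and 1.09 and 7.13 in T-bet- cDC2s, at least 35.9-fold higher in cDC1s when 3 reads are allowed in each T-bet+ library. Fyco1 RNA was 494 to 625 in T-bet+ cDC2s and 470 to 1056 in cDC1s and did not pass the test (adjusted p = 0.427).

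The sequences below carry the motifs on which the comparison of motifs turns, in windows of genes described here. All are read from mm10 on the plus strand, and capitals mark the letters matched on either strand by the motif named here for that window. Other searched motifs in these windows, such as AP-1 in those of Cxcr4, Ly75 and Il15, are in lower case. The first 7 windows were more accessible in cDC1s. Xcr1, Maml3, Cxcr4 and the window 38.4 kb past the Irf8 start (chr8:120774695-120774844) hold an ETS-IRF composite, Ly75 and Il15 hold tandem IRF half-sites, and Maml2 holds AP-1 next to an IRF half-site. The last 4 were more open in T-bet+ cDC2s, with Runx sites in Etv6 and Itga4, Runx and NF-kB sites in Runx2 and an NF-kB site in Tcf7.
Xcr1, chr9:123863318-123863467: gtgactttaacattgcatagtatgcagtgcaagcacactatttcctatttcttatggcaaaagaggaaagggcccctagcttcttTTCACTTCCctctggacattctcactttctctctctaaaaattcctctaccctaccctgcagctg
Maml3, chr3:51723983-51724132: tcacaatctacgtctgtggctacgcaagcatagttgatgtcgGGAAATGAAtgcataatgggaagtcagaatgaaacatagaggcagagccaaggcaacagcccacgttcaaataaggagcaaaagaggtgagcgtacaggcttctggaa
Cxcr4, chr1:128625736-128625885: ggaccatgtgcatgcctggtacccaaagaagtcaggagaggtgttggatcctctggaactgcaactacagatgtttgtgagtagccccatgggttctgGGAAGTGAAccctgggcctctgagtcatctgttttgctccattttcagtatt
Irf8 +38.4 kb, chr8:120774695-120774844: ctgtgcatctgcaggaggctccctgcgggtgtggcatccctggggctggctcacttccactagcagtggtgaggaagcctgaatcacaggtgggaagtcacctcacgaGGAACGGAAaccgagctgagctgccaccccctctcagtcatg
Ly75, chr2:60376537-60376686: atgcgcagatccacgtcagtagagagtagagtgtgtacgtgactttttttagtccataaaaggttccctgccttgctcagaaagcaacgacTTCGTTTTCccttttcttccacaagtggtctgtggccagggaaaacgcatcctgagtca
Il15, chr8:82376291-82376440: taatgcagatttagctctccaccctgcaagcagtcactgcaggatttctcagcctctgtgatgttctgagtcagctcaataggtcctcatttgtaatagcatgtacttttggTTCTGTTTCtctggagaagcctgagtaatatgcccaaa
Maml2, chr9:13701877-13702026: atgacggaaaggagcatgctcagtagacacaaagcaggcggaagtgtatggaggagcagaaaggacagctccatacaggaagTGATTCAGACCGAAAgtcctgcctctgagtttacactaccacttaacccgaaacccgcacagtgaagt
Etv6, chr6:134048124-134048273: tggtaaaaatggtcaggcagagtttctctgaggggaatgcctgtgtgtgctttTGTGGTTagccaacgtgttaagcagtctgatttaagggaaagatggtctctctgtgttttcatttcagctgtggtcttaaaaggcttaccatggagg
Itga4, chr2:79266639-79266788: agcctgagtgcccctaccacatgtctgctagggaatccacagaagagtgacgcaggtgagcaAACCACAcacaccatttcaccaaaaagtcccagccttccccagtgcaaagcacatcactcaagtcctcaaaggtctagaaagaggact
Runx2, chr17:44809849-44809998: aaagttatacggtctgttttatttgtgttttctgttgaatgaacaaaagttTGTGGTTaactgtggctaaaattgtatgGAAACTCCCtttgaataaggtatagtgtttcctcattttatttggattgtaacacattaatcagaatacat
Tcf7, chr11:52265738-52265887: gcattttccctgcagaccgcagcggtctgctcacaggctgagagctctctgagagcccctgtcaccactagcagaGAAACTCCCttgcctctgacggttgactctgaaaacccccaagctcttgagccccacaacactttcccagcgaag

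Windows open in cDC1s more often held IRF motifs. The ETS-IRF composite (GGAANNGAA) was found in 15.7% of them (95% Wilson interval 15.2 to 16.2), in 5.29% (4.97 to 5.62) of those open in T-bet+ cDC2s and 5.85% of uncalled windows, and 6.97% of all windows held it. Tandem IRF half-sites (GAAANNGAA) were found in 11.7% of windows open in cDC1s, 4.67% of those open in T-bet+ cDC2s and 4.92% of the others (5.70% of all). Of all windows with the ETS-IRF composite, 27.0% were more accessible in cDC1s and 8.36% in T-bet+ cDC2s. The AP-1-IRF composite, with GAAA directly before TGANTCA or TTTC 4 bases before it, was rare at 0.310% of all windows and stood at 0.707%, 0.376% and 0.239% in the same order. Both strands were searched, 8.71% of windows with the ETS-IRF composite also held tandem half-sites, and every window with the AP-1-IRF composite holds AP-1 by construction. Intervals cover counting error only, and windows are not replicates.

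Windows open in T-bet+ cDC2s more often held Runx and NF-kB motifs. The Runx site (TGTGGTT) was found in 9.95% of them (interval 9.52 to 10.4), in 4.96% (4.66 to 5.27) of windows open in cDC1s and in 4.76% of uncalled windows, against 5.35% of all. The NF-kB site (GGGANTTTC) stood at 2.62%, 0.636% and 0.715% (0.916% of all), and 31.5% of the windows that held it were more open in T-bet+ cDC2s. Klf (CCACACCC) stood at 3.09%, 1.27% and 1.81%, NF-Y (CCAATCA) at 3.45%, 1.40% and 1.80%, and the GC-rich Sp site (GGGGCGGGG) at 3.37%, 0.727% and 1.86%. The T-box site (TCACACCT) was found in 0.970% of windows open in T-bet+ cDC2s, 0.481% of those open in cDC1s and 0.707% of the others. A looser T-box form (AGGTGTNA) stood at 2.18%, 1.60% and 1.92%. PU.1 (GAGGAAGT) was more frequent at called windows of either direction, at 9.18% and 9.09% against 4.82%, and so was AP-1 (TGANTCA), at 12.8% and 11.4% against 6.98%. The CTCF core (CCANNAGGG) went the other way, at 3.51% and 2.62% of called windows against 4.41%, as did the E-box of Zeb factors (CAGGTG), at 8.45% and 9.05% against 11.4%.

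Base composition and promoters moved with direction, and part of the motif shares moved with them. Windows open in T-bet+ cDC2s had a median GC content of 50.7%, those open in cDC1s 46.7% and the others 49.3%. Among windows of 45% to 55% GC, the ETS-IRF composite stood at 16.1% of windows open in cDC1s against 5.70% of those open in T-bet+ cDC2s, Runx at 5.03% against 11.1%, and NF-kB at 0.610% against 2.77%. There the Sp site was at 0.457% and 0.604%, so the gap seen over all windows was mostly gone, and its high share was held by promoters (8.08% of promoter windows open in T-bet+ cDC2s). Outside promoters Runx was at 12.0% of windows open in T-bet+ cDC2s and 5.01% of those open in cDC1s. NF-Y was there at 2.08% and 1.40%, with 1.71% of uncalled windows. In promoters NF-Y stood at 5.95%, 1.41% and 1.99% in the same order, so most of its gap was held by promoters.

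**Figure D2:**
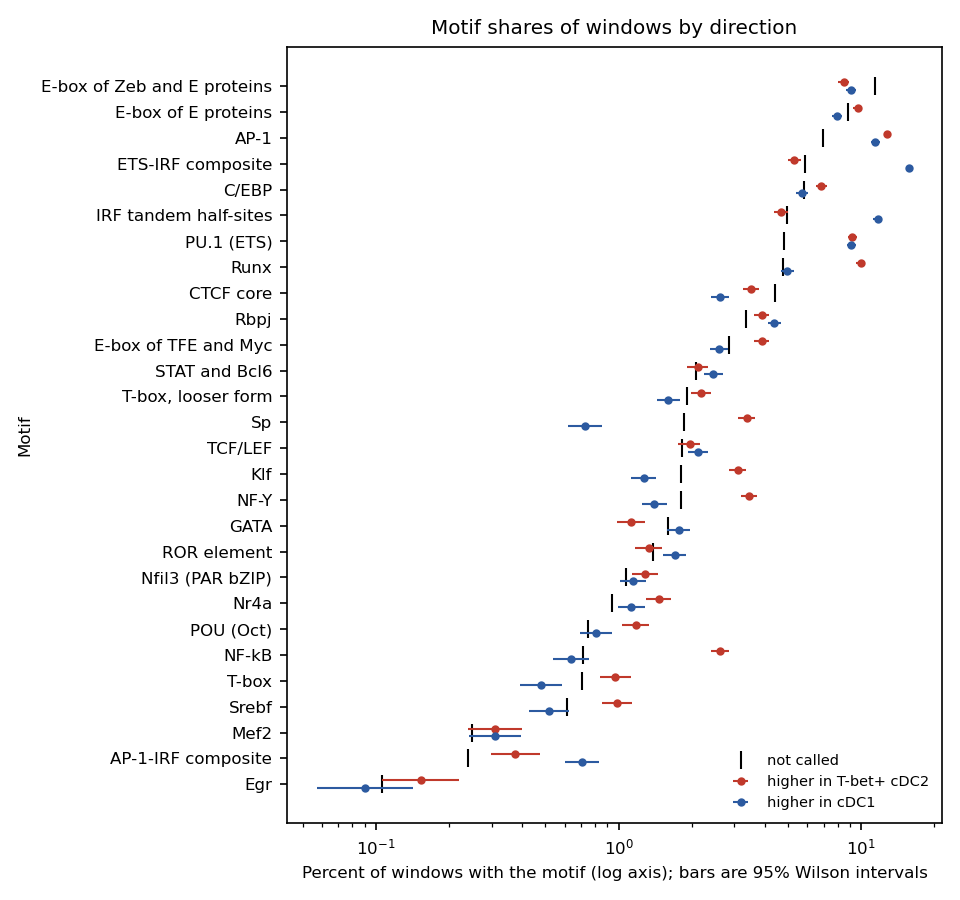
Percent of windows that hold each of 28 motifs (log axis), for windows more open in T-bet+ cDC2s (red), more accessible in cDC1s (blue) and not called (black ticks), with 95% Wilson intervals. IRF motifs lie to the right in blue, and Runx, NF-kB, Klf, Sp and NF-Y motifs to the right in red.

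At the thresholds used, promoters leaned toward T-bet+ cDC2s and other places toward cDC1s. In promoters (peaks within 2 kb of a transcript start) 12.1% of windows were more open in T-bet+ cDC2s and 6.99% in cDC1s, in introns 11.1% and 15.8%, and between genes 10.6% and 12.9%. Under 500 bases from a start site the shares were 12.6% and 4.62%, and over 50 kb away 6.71% and 13.7%. Changes at promoters open in T-bet+ cDC2s were small, with a median log2 fold change of 1.02 against 1.64 in introns. At a stricter threshold (adjusted p under 0.001, log2 fold change over 1), promoters held 25.2% of 9885 windows open in T-bet+ cDC2s. They held 17.6% of 14008 open in cDC1s, so promoter windows of either direction were then about equal in number. Promoter windows took 55% and 55.3% of reads in T-bet+ cDC2s and 52.0% and 49.8% in cDC1s, and the part of this in the promoter counts was not tested. In promoters of over 55% GC the shares were 14.0% and 3.11%, and in promoters of 45% to 55% GC 11.6% and 8.76%.

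T-bet- cDC2s stood between the compared subsets at most of these windows. Their libraries entered the filter on low counts, the scaling and the shared estimate of spread, and without them 154912 windows were tested and 18091 and 20182 called. Their mean lay between the other 2 means at 77.3% of windows open in T-bet+ cDC2s and was at or above the T-bet+ mean at 15.2%. At windows open in cDC1s it lay between at 71.7% and was at or below the T-bet+ mean at 25.7%. Both kinds were called for a gap between the other 2 means, and that choice alone makes a mean between them likelier. At uncalled windows the T-bet- mean lay between at 33.7%. The median normalized count of T-bet- cDC2s was 67.3 and 68.6 at the first kind, about midway, and 13.0 and 13.4 at the second, near T-bet+ cDC2s.

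The largest differences reached the limit of the counts. Ranked among windows averaging 50 normalized counts or more, with 1 window per gene, the most selective for T-bet+ cDC2s lay in an intron of Kcng3, a potassium channel gene (chr17:83616226-83616375). It held 162 and 173 counts in T-bet+ cDC2s, 3.14 and 3.45 in cDC1s, and 23.9 and 25.8 in T-bet- cDC2s (log2 fold change 5.62 ± 0.41, edgeR adjusted p = 9.04e-19). It was followed by windows at Dhx34 (5.43), Strada (5.29), Gm26561 (5.22), Fam43a (4.99), Hsdl1 (4.88), AC132100.2 (4.82), Serpina11 (4.81), Mir9-3hg (4.77) and a window on chromosome 2 with no gene within 50 kb (4.65). Of the genes so ranked with RNA tested, Dhx34 alone was called (RNA log2 fold change 1.14, adjusted p = 0.0119). Strada, Fam43a and Hsdl1 did not pass (adjusted p = 0.549, 0.0520 and 0.491), and Kcng3 and Serpina11 had too little RNA to test. The genes tested here are too few to set against the 9.97% of all genes with higher RNA in T-bet+ cDC2s. The Dhx34 window (chr7:16204962-16205111, in the promoter), 328 and 295 counts against 8.37 and 5.75, was at 83.6 and 117 in T-bet- cDC2s.

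In the other direction, 3 of the 10 windows so ranked had no read in T-bet+ cDC2s, the one in Fyco1 among them. At Gm9655 (chr8:82721189-82721338) cDC1s held 128 and 138 normalized counts, at least 47.1-fold higher, and at Tmem204 (chr17:25064430-25064579) 84.7 and 118, at least 36.1-fold higher. With 1 to 3 reads in T-bet+ cDC2s, the ratios were 464 at Gm49172 (exact counting interval 81.6 to 18112), 220 at Spef2 (37.8 to 8480), 128 at Zkscan2 (34.0 to 1033), 117 at Slc30a7 (32.4 to 985), 117 at Cep295 (31.7 to 965) and 106 at Wdr95 (35.2 to 507). Dock8, a regulator of dendritic cell migration, completed the list with a promoter window (chr19:25078339-25078488) at 1.92 and 1.84 counts in T-bet+ cDC2s, 193 and 207 in cDC1s, and 10.9 and 8.02 in T-bet- cDC2s (log2 fold change -6.64 ± 0.43). Among these genes RNA was called at Wdr95 and Slc30a7. The genes tested here are too few to set against the 8.20% of all genes with higher RNA in cDC1s. Wdr95 RNA was higher in cDC1s (log2 fold change of T-bet+ cDC2s over cDC1s -3.58 ± 0.68), and Slc30a7 was called (-0.96 ± 0.22, adjusted p = 0.0132) but not with replicate numbers as a block (adjusted p = 0.0520). Spef2 and Cep295 did not pass the test. Dock8 RNA was 4722 to 5062 against 3972 to 4998 (adjusted p = 0.784), and Tmem204 RNA 19.5 to 49.1 against 22.9 to 40.0 (adjusted p = 0.866).

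Some genes held 20 or more called windows, and in a few of them every call went to a single subset. Cadm1, an adhesion molecule of cDC1s, had 23 of 42 windows more accessible in cDC1s and none in T-bet+ cDC2s, with medians of 9.58 and 12.0 normalized counts in T-bet+ cDC2s, 56.5 and 62.1 in cDC1s, and 19.5 and 20.5 in T-bet- cDC2s over the called windows. Its RNA was 17370, 17670 and 8101 in cDC1s and 23.9 to 106 in T-bet+ cDC2s (log2 fold change -7.92 ± 0.81, edgeR adjusted p = 0.000155). Sgms1, a sphingomyelin synthase, had 35 windows more accessible in cDC1s and 7 less of 101, and lower RNA in T-bet+ cDC2s (log2 fold change -1.85 ± 0.29). Tiam1, an activator of Rac, had 20 against 2 of 73 (RNA -2.95 ± 0.61). By contrast, Nsmce2, Vps13b, Dip2c and Tns3, with 21 to 23 windows more accessible in cDC1s and at most 3 less, and Pde4d, with 23 against 14, had no RNA call.

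Among the genes with most called windows, the highest share of calls was not at a protein-coding gene. Of 21 windows closest to the noncoding gene Gm38231, spread over chr10:37080624-37125008, 20 were more accessible in cDC1s, with medians of 5.75 and 8.28 in T-bet+ cDC2s, 43.4 and 46.6 in cDC1s, and 8.68 and 8.02 in T-bet- cDC2s. The closest protein-coding gene is Marcks, a substrate of protein kinase C, whose RNA was 2969 to 4879 in T-bet+ cDC2s and 1838 to 2665 in cDC1s (adjusted p = 0.0888). This stretch thus separated cDC1s from both cDC2 subsets without a call in the RNA of that gene.

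In T-bet+ cDC2s the genes with most open windows were Foxp1 (28 more and 18 less accessible of 145), Bach2 (27 and 5 of 89), Plxnc1 (25 and 3 of 51), and Ston2 and Firre (23 and 0 of 48 and of 54). Fyb (22 and 2 of 55), Akap13 (22 and 5 of 73), Arhgap26 (22 and 14 of 94) and Etv6 (21 and 13 of 87) followed. Fyb, an adaptor of immune receptor signaling, had medians of 102 and 89.7 counts in T-bet+ cDC2s, 32.4 and 27.6 in cDC1s, and 54.3 and 61.5 in T-bet- cDC2s over the windows open in T-bet+ cDC2s. Its RNA was higher in T-bet+ cDC2s (log2 fold change 2.41 ± 0.21), as was that of Ston2 (3.62 ± 0.55), Plxnc1 (1.43 ± 0.25) and Foxp1 (1.36 ± 0.20), while RNA of Bach2, Arhgap26 and Etv6 did not pass the test. Akap13 RNA was called (adjusted p = 0.0403) but not with replicate numbers as a block (adjusted p = 0.0577). Firre, a noncoding RNA gene on the X chromosome, went the other way, with 28.0 to 59.3 normalized RNA counts in T-bet+ cDC2s and 72.4 to 305 in cDC1s (adjusted p = 0.0305, and 0.0660 with the block). Gm20388 headed both lists, with 32 windows more and 36 less accessible of 237, and its annotation runs over 4.43 Mb of chromosome 8 across many other genes.

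Irf8 lies within that annotation, and its downstream chromatin is described on its own for that reason, a choice made after its values were seen. Irf8 RNA was 94829, 90914 and 63859 in cDC1s, 1194 to 1804 in T-bet+ cDC2s and 3604 to 10538 in T-bet- cDC2s (T-bet+ over cDC1 log2 fold change -5.80 ± 0.43, edgeR adjusted p = 2.15e-05). The 3 windows assigned to Irf8 itself had no call. Over the 130 kb that follow its start, 13 of 35 windows were more accessible in cDC1s and 0 in T-bet+ cDC2s, and the median log2 fold change was -0.98. The window with most reads among them, 32.3 kb past the start (chr8:120768623-120768772), held 31.6 and 45.1 counts in T-bet+ cDC2s, 323 and 284 in cDC1s, and 35.8 and 40.1 in T-bet- cDC2s. It was as low in T-bet- as in T-bet+ cDC2s (log2 fold change of T-bet+ cDC2s over cDC1s -2.98 ± 0.24, adjusted p = 6.87e-17). By contrast, 3 windows next to each other between chr8:120759956 and chr8:120760550 graded, the first with 8.62 and 8.28 counts in T-bet+ cDC2s, 77.4 and 85.1 in cDC1s, and 27.1 and 42.8 in T-bet- cDC2s.

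**Figure D3:**
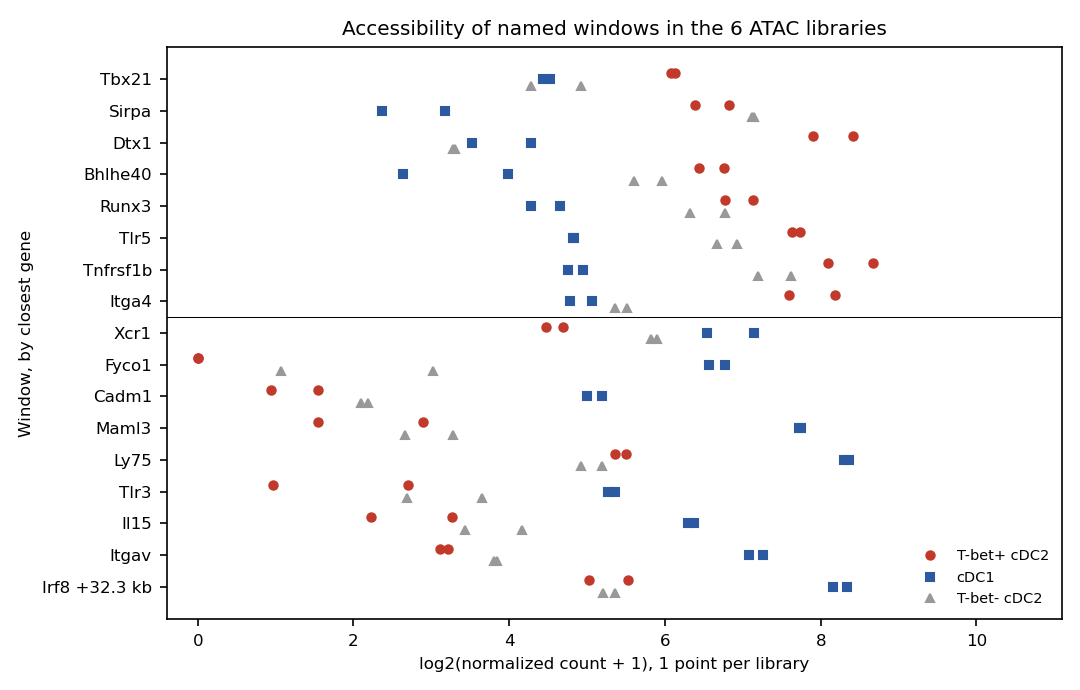
log2(normalized count + 1) of 17 named windows in each of the 6 ATAC-seq libraries, with T-bet+ cDC2s as red circles, cDC1s as blue squares and T-bet- cDC2s as grey triangles. Windows above the line were more open in T-bet+ cDC2s and those below it in cDC1s, and the grey points lie near blue at Tbx21, Dtx1 and Itga4 and near red at Sirpa, Runx3, Ly75 and the Irf8 window.

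Windows of cDC1-associated genes leaned toward cDC1s, as their RNA did. The shares called at cDC2-associated genes, markers of T-bet- cDC2s among them, were near those of housekeeping genes. These lists were drawn from knowledge of the lineages, with earlier results of these data known. Of 334 windows of 24 cDC1-associated genes, 114 (34.1%) were more accessible in cDC1s and 17 (5.09%) in T-bet+ cDC2s, with a median log2 fold change of -0.71 against 0.00 over all windows. By gene, 18 had more windows called for cDC1s, and RNA of 21 of 24 was higher in cDC1s. Among them were Plpp1 (11 of 15 windows), Wdfy4 (9 of 25), a protein needed for cross-presentation, Gcsam (8 of 13), Ly75 (8 of 18), the endocytic receptor DEC-205, and Tlr3 (7 of 14), the sensor of double-stranded RNA. At Ly75 the intronic window shown above held 40.2 and 44.2 counts in T-bet+ cDC2s, 314 and 327 in cDC1s, and 29.3 and 35.6 in T-bet- cDC2s (log2 fold change -2.92 ± 0.23, adjusted p = 4.31e-17). Gcsam RNA was 7698 to 10227 in cDC1s and 0 to 1.87 in T-bet+ cDC2s. Batf3, whose product cDC1s require, did not lean this way, with 3 windows more open in T-bet+ cDC2s and 1 in cDC1s of 23, and its RNA was 1987 to 3613 against 2140 to 3793 (adjusted p = 0.971). Btla, an inhibitory receptor, had 2 of 25 windows more open in T-bet+ cDC2s and none in cDC1s, although its RNA was lower in T-bet+ cDC2s (log2 fold change -3.71).

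Of 249 windows of cDC2-associated genes, 47 (18.9%) were more open in T-bet+ cDC2s and 26 (10.4%) in cDC1s, with a median log2 fold change of 0.45. By gene, 12 had more windows called for T-bet+ cDC2s and 5 for cDC1s, and RNA of 21 of 24 was higher in T-bet+ cDC2s. The list also holds genes that the study assigns to T-bet- cDC2s. Of these, Clec12a had 1 window more open in T-bet+ cDC2s and 3 in cDC1s of 15. S1pr1 had 1 and 3 of 23, Csf1r 1 and 4 of 13, and Tmem176b 2 and 0 of 5. Housekeeping genes held like shares (19.2% and 9.59%, median 0.18) with no gene of higher RNA. That reference is small, with 9 genes that had windows. Most of its windows more open in T-bet+ cDC2s were in Eef1a1 (6), Ywhaz (4) and Actb (3). Tbc1d4, a regulator of vesicle traffic, held 12 windows more open in T-bet+ cDC2s and 6 more accessible in cDC1s. Its intronic window at chr14:101486658-101486807 held 156 and 169 counts in T-bet+ cDC2s, 9.41 and 14.9 in cDC1s, and 35.8 and 36.5 in T-bet- cDC2s. Another intronic window of the gene, at chr14:101495708-101495857, held 0.958 and 2.76 counts against 30.3 and 43.7, so opposite calls stood within introns of a gene whose RNA was higher in T-bet+ cDC2s (log2 fold change 1.88). Cdh17, a cadherin, had RNA of 674 to 1572 in T-bet+ cDC2s and 70.5 to 144 in cDC1s, but 3 of its 13 windows were more accessible in cDC1s and none in T-bet+ cDC2s. At chr4:11750468-11750617, with an ETS-IRF composite, cDC1s held 29.3 and 70.1 counts and T-bet+ cDC2s 1.92 and 0.92, a ratio of 35.1 (exact counting interval 11.5 to 171). Irf4 had 3 of 7 windows and Klf4 2 of 2 more open in T-bet+ cDC2s, and RNA of both was higher there (log2 fold change 4.91 ± 0.45 and 3.13 ± 0.44). With assignment to protein-coding genes alone these were 4 more and 3 less of 15 at Irf4, and 5 and 2 of 10 at Klf4.

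**Figure D4:**
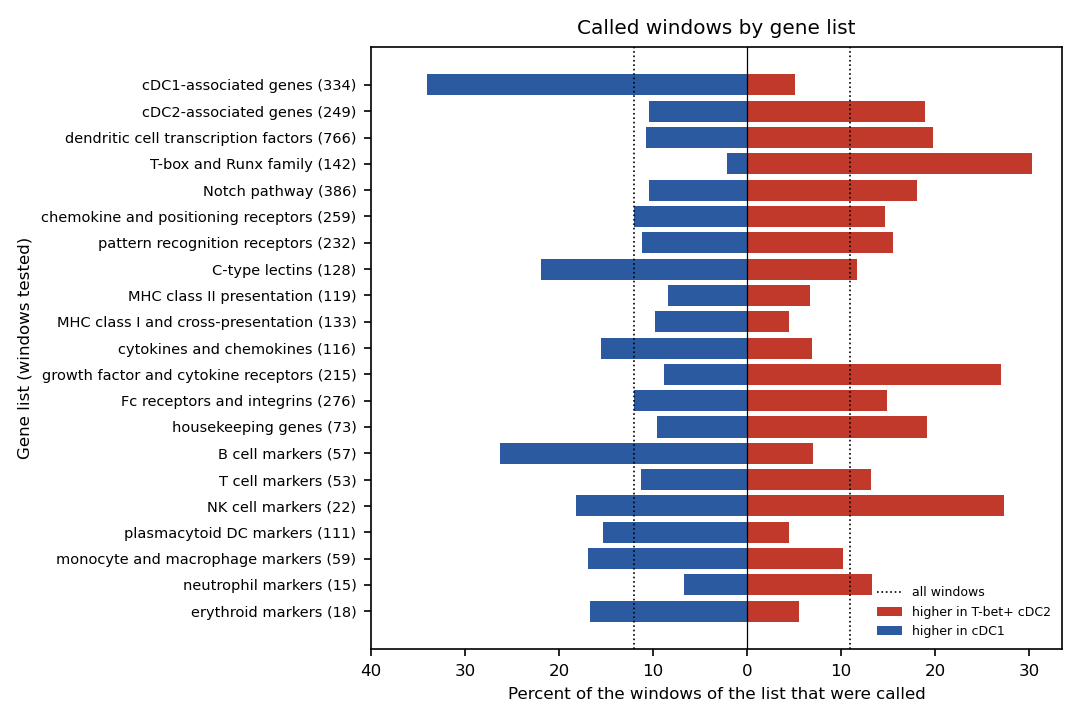
Percent of the tested windows of each gene list that were more open in T-bet+ cDC2s (red, right) or in cDC1s (blue, left), with the number of windows in brackets and dotted lines at the shares over all windows, 11.0% and 12.0%. cDC1-associated genes reach 34.1% on the left, and T-box and Runx genes 30.3% on the right.

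Of 766 windows of transcription factor genes of dendritic cells, 152 (19.8%) were called for T-bet+ cDC2s and 83 (10.8%) for cDC1s, with a median log2 fold change of 0.25. These shares are close to those of housekeeping genes (19.2% and 9.59%), so the lean is not shown to be particular to this list. Of the lists, that of T-box and Runx genes with their partner Cbfb had the highest share, with 43 windows more and 3 less accessible of 142 (30.3% and 2.11%). Runx2 had 18 against 1 of 57, Runx1 14 against 2 of 44 and Runx3 9 against 0 of 24. The intronic Runx3 window at chr4:135159815-135159964 held 139 and 108 counts in T-bet+ cDC2s, 24.1 and 18.4 in cDC1s, and 79.2 and 108 in T-bet- cDC2s. RNA was called higher in T-bet+ cDC2s for Runx2 (1.38 ± 0.29, adjusted p = 0.00907), while Runx3 (0.87 ± 0.57) and Runx1 (-0.10 ± 0.53) did not pass. Bhlhe40, a repressor that limits IL-10, had 12 of 17 windows more open in T-bet+ cDC2s and none less, and its RNA was 26033 to 33970 against 5414 to 5985. Its strongest window (chr6:108687701-108687850) held 107 and 85.6 counts against 5.23 and 14.9, with 47.8 and 61.5 in T-bet- cDC2s. Relb, an NF-kB subunit, had 5 of 6 windows more open in T-bet+ cDC2s, and its RNA of 14130 to 20177 against 1078 to 5043 did not pass the test (adjusted p = 0.0927). Id2, a repressor of E proteins, went toward cDC1s at 5 of 8 windows, with RNA called lower in T-bet+ cDC2s (adjusted p = 0.0479, and 0.120 with replicate numbers as a block).

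Notch pathway genes were split, with Dtx1 open throughout in T-bet+ cDC2s and others divided. Dtx1, a Notch target that encodes a ubiquitin ligase, had all of its 8 windows more open in T-bet+ cDC2s. The window of largest change (chr5:120697022-120697171, in the promoter) held 339 and 238 counts in T-bet+ cDC2s, 10.5 and 18.4 in cDC1s, and 8.68 and 8.91 in T-bet- cDC2s (log2 fold change 4.33 ± 0.30, edgeR adjusted p = 8.26e-20). Dtx1 RNA was 7132, 7423 and 7896 in T-bet+ cDC2s, 4.77 to 13.7 in cDC1s and 145 to 205 in T-bet- cDC2s (9.69 ± 0.41, adjusted p = 1.46e-06). Maml3, a coactivator of Notch, was split, with 20 windows more open in T-bet+ cDC2s and 10 in cDC1s of 82. The intronic Maml3 window shown above held 1.92 and 6.44 counts in T-bet+ cDC2s, 213 and 210 in cDC1s, and 8.68 and 5.35 in T-bet- cDC2s (-5.61 ± 0.38, adjusted p = 3.02e-20), and yet Maml3 RNA was higher in T-bet+ cDC2s (2.73 ± 0.39). Maml2 had 8 against 9 of 59 windows and lower RNA in T-bet+ cDC2s (-3.21 ± 0.61). Numb, a Notch inhibitor, had 6 of 18 windows more accessible in cDC1s and none in T-bet+ cDC2s. Rbpj, the DNA-binding factor of the pathway, had 11 against 2 of 49 in favor of T-bet+ cDC2s, with RNA called lower there (-1.04 ± 0.27, adjusted p = 0.0255, and 0.0804 with the block). The list as a whole stood at 18.1% and 10.4% of 386 windows with a median of 0.01, and RNA of 3 genes was higher and of 6 lower of 23 tested.

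Receptors for growth factors and cytokines held 58 more and 19 less accessible of 215 windows (27.0% and 8.84%), while RNA of 3 was higher and of 3 lower of 18. Tnfrsf1b, a TNF receptor, had 11 against 1 of 15 windows. Its intronic window at chr4:145221580-145221729 held 405 and 272 counts in T-bet+ cDC2s, 26.1 and 29.9 in cDC1s, and 195 and 146 in T-bet- cDC2s, and Tnfrsf1b RNA was higher in T-bet+ cDC2s (1.46 ± 0.22). Ifngr1, a chain of the interferon-γ receptor, had 8 against 0 of 17 windows (8 against 2 of 22 with protein-coding genes alone) although its RNA was lower in T-bet+ cDC2s, at 21033 to 26411 against 34794 to 39514 (-0.70 ± 0.16, adjusted p = 0.0123). Il4ra, a chain of the IL-4 receptor, had 5 of 7 windows more open in T-bet+ cDC2s with no RNA call.

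Sensors of microbes split by gene. Tlr5, the flagellin receptor, had 8 of 18 windows more open in T-bet+ cDC2s and none less, and its RNA was 476 to 562 against 0 to 12.6. The window chr1:182937707-182937856 held 211 and 198 counts in T-bet+ cDC2s, 27.2 and 27.6 in cDC1s, and 101 and 120 in T-bet- cDC2s. Tlr7, a sensor of single-stranded RNA, had 3 of 7 windows of this kind, and Nod1 4 of 13 with 1 in reverse. Tlr3, Tlr11 and Tlr12 were more accessible in cDC1s at 7 of 14, 2 of 9 and 2 of 3 windows with none in reverse. At the intronic Tlr3 window chr8:45404028-45404177 the counts were 0.958 and 5.52 in T-bet+ cDC2s, 37.6 and 40.2 in cDC1s, and 5.43 and 11.6 in T-bet- cDC2s. RNA of these sensors went the same way, from a log2 fold change of 8.07 for Tlr7 to -7.21 for Tlr12. Over the list, 36 windows were more and 26 less accessible of 232 (15.5% and 11.2%).

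C-type lectins leaned toward cDC1s by count, 15 against 28 of 128 windows (11.7% and 21.9%), although RNA of 12 was higher and of 5 lower of 25. Clec4a4, which encodes the cDC2 marker DCIR2, had 2 of 4 windows more open in T-bet+ cDC2s. Its RNA was 3021 to 3812 against 0 to 10.3. The DC-SIGN paralog Cd209d had 3 of 4 windows more accessible in cDC1s while its RNA was higher in T-bet+ cDC2s, at 17.7 to 25.7 against 2.86 to 5.72. The study kept uniquely aligned reads only, and the part of similar Cd209 paralogs in these counts was not tested. Among chemokine receptors the B cell zone receptor Cxcr5 had 10 of 16 windows more open in T-bet+ cDC2s and none less, with RNA of 148 to 210 against 11.4 to 33.2. Cx3cr1, the fractalkine receptor, had 7 of 26 windows of this kind. At the Cx3cr1 exon window chr9:120049492-120049641 T-bet- cDC2s were the most open, with 103 and 109 counts against 46.0 and 25.8 in T-bet+ cDC2s and 2.09 and 6.90 in cDC1s. Cxcr4, the receptor that retains cells in bone marrow, had 6 of 27 windows more accessible in cDC1s (6 against 3 of 35 with protein-coding genes alone) and no RNA call. The intergenic Cxcr4 window shown above held 3.83 and 2.76 counts in T-bet+ cDC2s, 80.5 and 55.2 in cDC1s, and 17.4 and 14.3 in T-bet- cDC2s.

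Fc receptors and integrins held 41 more and 33 less accessible of 276 windows (14.9% and 12.0%). Itga4, the α4 integrin, had 4 against 1 of 17, and its window with a Runx site shown above held 290 and 192 counts in T-bet+ cDC2s, 32.4 and 26.4 in cDC1s, and 40.2 and 44.6 in T-bet- cDC2s (3.02 ± 0.27). Itgav, the αV integrin, had 11 of 27 windows more accessible in cDC1s and 2 in T-bet+ cDC2s. Neither gene had an RNA call. The Itgav promoter window chr2:83746488-83746637 held 7.66 and 8.28 counts in T-bet+ cDC2s, 134 and 152 in cDC1s, and 13.0 and 13.4 in T-bet- cDC2s.

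Windows of MHC class II genes differed little, with 8 more and 10 less accessible of 119 (6.72% and 8.40%), 8 of those 10 in March1, which encodes a ubiquitin ligase for MHC class II. Those of MHC class I and cross-presentation genes stood at 6 and 13 of 133 (4.51% and 9.77%), of which Wdfy4 held 9 of the 13. Both lists were below the shares over all windows. Cytokines and chemokines held 8 and 18 of 116 windows (6.9% and 15.5%, against 11.0% and 12.0% of all windows). Il15, a survival factor for NK and CD8 T cells, had 5 of 15 windows more accessible in cDC1s and RNA of 199 to 294 in T-bet+ cDC2s against 696 to 1042. The Il15 window shown above held 8.62 and 3.68 counts against 77.4 and 81.6, with 9.77 and 16.9 in T-bet- cDC2s. Il10, an inhibitory cytokine, had 5 of 11 windows of this kind, with RNA at or below 12.6 normalized counts in every library of both subsets. Housekeeping genes, which serve as a reference for such lists, held 14 more and 7 less accessible of 73 windows (19.2% and 9.59%). Gusb, the lysosomal β-glucuronidase among them, was no neutral gene here, with a promoter window (chr5:130000881-130001030) at 56.5 and 59.8 counts in T-bet+ cDC2s against 243 and 232 in cDC1s, and RNA of 2499 to 3288 against 33760 to 36745.

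Some windows of lymphocyte genes were open without RNA. B cell markers held 4 more and 15 less accessible of 57 windows (7.02% and 26.3%, against 11.0% and 12.0% of all windows). Their summed counts were 1256 and 1244 in T-bet+ cDC2s and 1810 and 2090 in cDC1s. Of the 15, 12 were in Ebf1, a factor of B cell commitment, whose RNA was 0.935 to 9.74 normalized counts in T-bet+ cDC2s and 0 to 1.94 in cDC1s. Pax5 RNA was at or below 0.953 in both subsets. The intronic Ebf1 window chr11:44861209-44861358 held 3.83 and 0.92 counts in T-bet+ cDC2s, 66.9 and 108 in cDC1s, and 7.60 and 0.891 in T-bet- cDC2s. T cell markers held 7 and 6 of 53 windows (13.2% and 11.3%), with summed counts of 2203 and 2107 in T-bet+ cDC2s and 1809 and 1849 in cDC1s. Tcf7, a T cell factor, had 3 of 12 windows more open in T-bet+ cDC2s, the one shown above at 141 and 125 counts against 13.6 and 24.1, with 30.4 and 22.3 in T-bet- cDC2s, and RNA of 435 to 539 against 17.4 to 54.9. Lck, a T cell kinase, had 2 of 11 windows and RNA of 7.48 to 67.8 in T-bet+ cDC2s against 0 in every cDC1 library, at least 11.5-fold higher. NK cell markers held 6 and 4 of 22 windows (27.3% and 18.2%, summed counts 1473 and 1237 in T-bet+ cDC2s, 965 and 914 in cDC1s). Plasmacytoid DC markers held 5 and 17 of 111 (4.5% and 15.3%, summed counts 3624 and 3825, 4089 and 4483). Monocyte and macrophage markers held 6 and 10 of 59 (10.2% and 16.9%, summed counts 2232 and 2088, 2188 and 2311). Neutrophil markers held 2 and 1 of 15 (13.3% and 6.67%, summed counts 654 and 487, 518 and 577). Erythroid markers held 1 and 3 of 18 (5.56% and 16.7%, summed counts 453 and 446, 549 and 496). In RNA, 2 of 4 B cell, 3 of 4 T cell, 0 of 2 NK cell, 1 of 6 plasmacytoid DC, 4 of 10 monocyte and macrophage, 3 of 7 neutrophil and 0 of 5 erythroid markers tested were higher in T-bet+ cDC2s, and 0, 1, 0, 2, 3, 0 and 0 were lower in the same order. Over all genes tested by RNA in spleen, 9.97% were higher in T-bet+ cDC2s and 8.20% lower. The part of other cells in the results was not tested.

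RNA was called in the direction of the windows for a minority of genes, though most RNA calls had that direction. Over all genes tested in spleen, RNA was higher in T-bet+ cDC2s for 1434 of 14377 (9.97%) and higher in cDC1s for 1179 (8.20%), at an adjusted p under 0.05 in edgeR. Of 2504 genes with RNA tested whose called windows were all more open in T-bet+ cDC2s, RNA was higher there for 512 (20.4%) and lower for 108 (4.31%). Of 1977 genes with windows more accessible in cDC1s alone, RNA was higher in cDC1s for 361 (18.3%) and lower for 82 (4.15%). Among the genes called by RNA in these groups, 82.6% and 81.5% had the direction of their windows. The remaining genes had no RNA call, which does not show that their RNA was equal. Genes without a called window stood at 7.13% and 7.03%, and the 2162 genes with windows of both directions at 12.7% and 12.9%. More windows went with more RNA calls. With at least 10 windows open in T-bet+ cDC2s and 0 in cDC1s, 18 of 30 genes had higher RNA and 1, Firre, lower, and with at least 10 in cDC1s and 0 in T-bet+ cDC2s 18 of 35 had higher RNA in cDC1s and 0 lower. Across 9559 genes the median log2 fold change of a gene's windows and that of its RNA had a Spearman correlation of 0.28. Its points share libraries, and genes are not independent replicates. RNA of mesenteric lymph node cDCs, with fewer libraries, was higher in T-bet+ cDC2s for 629 of 15298 genes (4.11%) and higher in cDC1s for 323 (2.11%). RNA libraries also differed within every subset in their correlation with transcript GC content. It ran from -0.066 to 0.172 in T-bet+ cDC2s, from -0.156 to 0.149 in cDC1s and from -0.225 to 0.132 in T-bet- cDC2s.

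**Figure D5:**
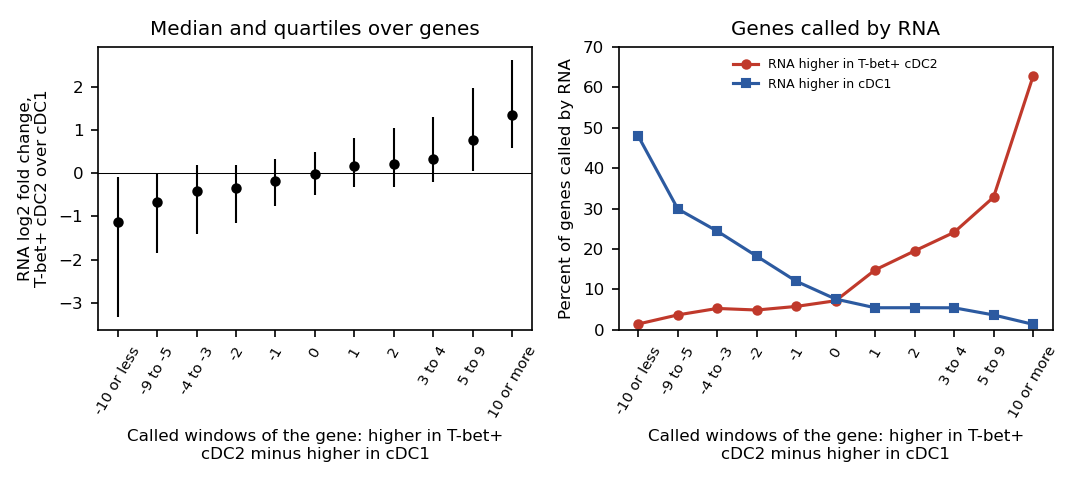
RNA log2 fold change of T-bet+ cDC2s over cDC1s as median and quartiles over genes (left) and percent of genes called by RNA in either direction (right), by the number of windows of the gene more open in T-bet+ cDC2s minus those more accessible in cDC1s. The median moves from -1.14 at -10 or less (71 genes) to 1.35 at 10 or more (75 genes), and the red and blue shares cross at 0.

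RNA calls went with windows in promoters and with windows outside them. Of 1403 genes whose called windows outside promoters were all more open in T-bet+ cDC2s, RNA was higher for 350 (24.9%), and of 2525 with such promoter windows for 441 (17.5%). For cDC1s the order was reversed, with 326 of 1947 (16.7%) outside and 250 of 1091 (22.9%) in promoters. A gene can be counted in both, and the difference was not tested.

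Opposite calls within a single peak were rare. Of 28572 peaks with a called window 164 (0.574%) held windows of both directions, which is 2.31% of the 7102 peaks with 2 or more called windows. The clearest was a promoter peak of Akap13, an anchoring protein for protein kinase A. A window at chr7:75609613-75609762 held 424 and 388 counts in T-bet+ cDC2s, 102 and 90.8 in cDC1s, and 180 and 189 in T-bet- cDC2s (2.07 ± 0.19). A window 369 bases away, at chr7:75609244-75609393, held 39.3 and 33.1 counts in T-bet+ cDC2s, 114 and 145 in cDC1s, and 19.5 and 23.2 in T-bet- cDC2s (-1.83 ± 0.28), with a Runx site and an ETS-IRF composite. Counted as a whole the peak was more open in T-bet+ cDC2s (0.55), so the second window is not seen at that scale. Chst3, Rps25-ps1, Dock11 and AC162612.1 followed, and of these whole peaks only that of Rps25-ps1 passed the thresholds (0.83).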

How the data were processed

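ATAC-seq and RNA-seq libraries of sorted mouse splenic cDC subsets were analysed. ATAC-seq reads were mapped by the authors to mm10 (Bowtie2 2.2.5) and shifted for the transposase. Peaks were called on all replicates together with MACS2 2.1.1.20160309 and kept where reproducible between replicates of a subset. Reads were then counted in windows around the peak summits. These raw counts, and those over whole peaks, were used as deposited. The deposited peak list also carries a score column, which is constant, and the summit list a −log10 value from the peak caller, and neither entered a test. RNA reads were aligned by the authors with HISAT2 2.1.0 and counted per gene, and the deposited raw counts were used.

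Windows (filterByExpr, TMM) were fitted in edgeR 4.0.16 by the quasi-likelihood test over all 6 libraries with 3 subsets, with Benjamini-Hochberg adjustment, and calls needed an adjusted p below 0.01 and a log2 fold change past 0.5 either way. RNA was fitted likewise over 9 libraries at an adjusted p under 0.05. Normalized counts are counts scaled to a common library size. The SE of a fold change is its size divided by the square root of F. Each peak was assigned to the closest GENCODE M21 gene within 50 kb. Motifs were matched letter by letter on both strands of the mm10 sequence. Neighbouring windows overlap for 25.7% of windows and then share reads. An exact permutation test on 2 against 2 libraries cannot go below a two-sided p of 0.333, so single values rest on the fit across windows. The study calls its libraries biological replicates, for RNA with cells pooled from 2 mice each. p-values measure the spread between these libraries. In a simulation of the window comparison 198 of 200 changed windows were recovered with 1 false call, and in one of the RNA comparison 103 of 200 genes with 3 false calls. The changed features had high counts and all changed by the same large fold, and every feature was given the same spread. In the data 23% of windows were called, many with lower counts or smaller changes. The simulations thus check the fit and give no error rate for the calls.

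RNA replicate numbers may pair the samples, because deviations from the subset means correlated between same-numbered libraries (0.17, 0.135 and 0.111). This comes from the data and not from the labels. The RNA values and calls given are nonetheless from the fit by subset alone, with 1434 and 1179 genes called, except where the block is named. A fit with the number as a block, which called 1084 and 836 genes, is given as an alternative. Window libraries were not paired (0.0132). Named were the marker genes, the 10 windows of largest change in each direction (mean of 50 normalized counts or more, no overlap between subsets, 1 per gene), the 10 genes with most called windows in each direction, up to 4 members per list and direction with most called windows, each with its window of largest change, and the 5 clearest peaks with both directions. Other list members, and the sequences printed among those eligible, were chosen after their values were seen. The labels, which give RFP+ as T-bet+, were followed where the methods print the RFP signs reversed. The gene lists, motifs and comparison were chosen with earlier results of these data known. Alternatives are given in the closing section.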

Additional observations from a re-analysis of the deposited data

How the results depend on the processing

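No window was called in the opposite direction under any of the 15 alternatives tried. The number of windows more open in T-bet+ cDC2s was 18359, against 11949 by DESeq2, 10581 with at least 10 counts in every library (fewer windows tested), 9885 at an adjusted p under 0.001 and a log2 fold change over 1, and 11597 to 17415 with 1 library left out, lowest without cDC1 replicate 2 and next without cDC1 replicate 1 (12112). For windows more accessible in cDC1s it was 19957, against 11932 by DESeq2, 10094 with at least 10 counts, and 13440 to 16293 with 1 library left out. Whole peaks higher in T-bet+ cDC2s were 6512 at the stricter threshold and 7753 to 10454 with 1 library left out, lowest without cDC1 replicate 2. Genes with higher RNA in T-bet+ cDC2s were 352 at the stricter threshold and 920 to 1162 with 1 library left out, lowest without cDC1 replicate 2, and those with higher RNA in cDC1s were 223 and 723 to 1165, with 723 without T-bet+ cDC2 replicate 1 and 772 without replicate 3. A lone ATAC-seq library is then assumed to vary like the other subsets.

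With the replicate number as a block, 17955 and 19359 windows were called, and for RNA 1084 and 836 genes. The window numbers are shared numbers only. Beside the genes given with their blocked p in the text, no other RNA call of a gene named there with an RNA value was lost under the block.

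The promoter share of windows open in T-bet+ cDC2s (35.5%) was 29.9% with protein-coding genes alone, 34.2% by the nearest start site and 25.2% at the stricter threshold, and that of windows open in cDC1s (18.8%) was 13.3%, 17.7% and 17.6%. At the stricter threshold promoter windows of either direction were about equal in number. Of genes called by RNA whose windows were all more open in T-bet+ cDC2s, 82.6% had RNA of the same direction, against 78.9% by the nearest start site, 86.4% at the stricter threshold, 88.5% with RNA from mesenteric lymph nodes, and 78.2% to 89.4% with 1 library left out. For cDC1s it was 81.5%, against 73.5% with lymph node RNA and 82.0% to 86.3% with 1 library left out. Of 172 named windows 127 kept their call under every alternative that tested them, the stricter threshold aside, and 0 reversed. With at least 10 counts in every library 68 kept it and 4 lost it, and the others were not tested. Of the list counts 36 stayed within 1.5 times with protein-coding genes alone and 6 moved further, and 24 of 42 moved further at the stricter threshold. The causes were not tested.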
